A study of Mus musculus with 12 samples.

Results

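The 10 genes described here belong to the stress programme of the transcription factor ATF4: Gdf15, Atf4, Atf5, Ddit3, Ddit4, Sesn2, Trib3, Chac1, Asns and Psat1. The set is defined by symbol, with no threshold on a measured value, but it was drawn up with earlier results of these data known. A GRCm38 annotation tied each symbol to 1 of the 30994 Ensembl gene rows counted. The cells were SIM-A9, a microglial line (microglia are the brain's resident macrophages) of mouse strain C57BL/6. Each culture first received 10 µM polymyxin B for 1 h, an antibiotic that binds bacterial endotoxin, so the control cultures carried it too. Next came DMSO as solvent or 10 µM C13 for 1 h, a compound that by the series title inhibits MOK, a protein kinase. Sham or TDP-43 aggregates followed at 5 µg/mL, TDP-43 being an RNA-binding protein that aggregates in motor neuron disease. After 2.5 h, 100 µM 4-thiouridine was added for 90 min, which made 4 h with aggregates in all. The groups are written DMSO/sham, DMSO/TDP-43, C13/sham and C13/TDP-43, and each had 3 libraries. They come from 1 cell line, 1 dose of each agent and 1 time, and the labels call the samples biological replicates without saying whether cultures or days differed. P-values therefore measure the spread between these samples, which may be partly technical.

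In the integrated stress response, kinases that sense amino acid shortage, unfolded protein, viral RNA or haem loss phosphorylate the translation factor eIF2. Most translation then slows, while the Atf4 message is translated better because of short upstream reading frames. ATF4 protein pairs with other leucine zipper factors and switches on genes for amino acid supply, for feedback and, when stress lasts, for cell death. Gdf15, which encodes a secreted cytokine of the TGF-beta family, is one of the outputs of that programme and is also induced by p53. Because ATF4 is controlled in large part through translation, the level of its message alone does not report its activity.

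ATF4 dimers with C/EBP factors are known to bind a composite element whose shared core can be written TGATGNAA. That core was searched on both strands of windows from 250 bases before to 50 after each RefSeq gene start (GRCm38.p6). All 10 members had a window, 13 windows in all, and 3 of the 13 held the core, in Chac1, Trib3 and Asns. Of all 32851 promoter windows of the same length, 3.97% held it. The narrower TGATGCAA, whose matches are all matches of the core as well, occurred in 1 of the 13 member windows, in Chac1, and in 0.895% of all windows. The matches are shown because they are what the promoters of these 3 members share, each read along the gene's strand with the match in capitals.
Chac1: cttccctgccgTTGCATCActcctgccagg
Trib3: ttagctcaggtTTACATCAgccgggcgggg
Asns: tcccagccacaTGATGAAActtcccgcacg
The Chac1 stretch lies at chr2:119351038-119351067 on the plus strand and its match starts at position -193 relative to the gene start. The Trib3 stretch lies at chr2:152344028-152344057 on the minus strand and its match starts at position 15. The Asns stretch lies at chr6:7693214-7693243 on the minus strand and its match starts at position -23. In Chac1 and Trib3 the core reads on the opposite strand, and in Asns on the gene's own strand. A match is a description of letters, not a measured binding site.

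Total reads per library ran from 17436397 to 41779882, and reads counted as nascent from 552042 to 2722812. Nascent reads are those taken to be made during the labelling pulse, by a rule that the sources used here do not give. Library by library, the nascent share ran from 1.88% in C13/sham replicate 3 to 7.11% in DMSO/sham replicate 2. C13/sham replicate 3 and DMSO/TDP-43 replicate 3 (2.13%) had the lowest nascent shares and were known from earlier results to stand apart. Results that move without these 2 are therefore given both ways. DMSO/sham replicate 2 was further from the rest in nascent share, since every other library lay at 3.40% or below. It was left out only where each library was left out in turn. Of 10 microglial and myeloid markers, 9 reached a mean of 1 CPM (reads scaled to a common library size) in total RNA, and their summed level ran from 776 to 1203 CPM. The exception was Tmem119. None of 4 astrocyte, 4 neuron and 4 fibroblast markers reached that level, and of 4 oligodendrocyte markers only Mbp did, with Mog at 0. These are bulk samples, so fewer cells of a type and less RNA per cell cannot be told apart.

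No member passed the test in any comparison. In total RNA, edgeR's quasi-likelihood test called 0 of 10 members in each of 7 comparisons, and 0 of all 11827 genes tested, which is 0% in each comparison. In nascent RNA it called 0 of the 8 members that passed the filter on low counts, and over all 7078 genes it called 0% in 6 comparisons and 0.0141% (1 gene, Mff, which is no member) in TDP-43 against sham averaged over drug arms. Mff, a gene of mitochondrial fission named after its values were seen, had a log2 difference of -4.35 (SE 0.67, edgeR adjusted p = 0.0286). DESeq2 called 0 members as well, and the number of member calls over all alternative settings of the fits across genes was 0. At an unadjusted p under 0.05, 3 members stood out in total RNA for TDP-43 against sham with DMSO, against 4.36% of all genes, and 2 members in nascent RNA for C13 against DMSO with sham, against 6.89% of all genes. In each of the other comparisons of either table, 0 or 1 member did, against 3.19% to 8.84% of all genes. The values below are therefore measured levels and differences of genes that edgeR did not call.

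The share of a gene's reads that were nascent differed widely between members. Gdf15 had the highest share: 16080 of its 30182 reads over the 12 libraries were nascent, or 53.3%. Of 9932 genes averaging more than 50 total reads, only 8 had a higher one. The median over those genes was 2.63%, with quartiles at 1.71% and 3.98%. Within libraries the Gdf15 share was 53.0%, 57.9% and 65.9% in DMSO/sham, 46.6%, 59.9% and 38.2% in DMSO/TDP-43, 61.6%, 55.3% and 40.9% in C13/sham, and 49.2%, 60.8% and 56.0% in C13/TDP-43. Even the lowest of these, in DMSO/TDP-43 replicate 3, had a 95% Clopper-Pearson interval of 35.7% to 40.7%, far above the median gene. The other low value, 40.9% (38.9% to 43.03%), was in C13/sham replicate 3, so both lie in the libraries with the lowest nascent shares overall. These intervals cover counting error only. All 24 Gdf15 counts were even, so the interval was computed on counts divided by 2.

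Sesn2, which encodes a leucine-sensing protein that restrains mTORC1, came next with 26.5% of 1424 reads and a range over libraries of 10.9% to 36.7%. Ddit3, which encodes the pro-apoptotic factor CHOP, had 19.8% of 1071 reads, but its libraries ran from 0% to 72.5%. The 72.5% was 29 of 40 reads in C13/sham replicate 3 (95% Clopper-Pearson interval 56.1% to 85.4%), and the 0% was seen in DMSO/sham replicate 3 and C13/TDP-43 replicate 1. Chac1, an enzyme that breaks down glutathione, had 26 nascent of only 150 reads (17.3%) and is too low to rank. Atf4 stood at 9.38% with a narrow range of 7.01% to 11.8%.

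The enzymes and the remaining regulators lay nearer the ordinary gene. Asns, the enzyme that makes asparagine, had 5.74%, and Psat1, an enzyme of serine synthesis, 3.60%. Ddit4, which encodes the mTORC1 inhibitor REDD1, had 3.75%, Atf5, a stress transcription factor related to ATF4, 3.32%, and Trib3, a pseudokinase that feeds back on ATF4, 2.76%. All 9 members with enough reads to rank were at or above the median of all genes, though Trib3 exceeded it only slightly. Labelling is read from changed U bases, so U content near the 3′ end was taken over the last 250 bases of a transcript. In the longest basic transcript it was 32% in Gdf15, 20% in Sesn2, 20.4% in Ddit3 and 34.8% in Chac1. The median over 9876 genes was 30%, but there the longest transcript of any kind was used, so the measures are not alike. The part of U content in these shares was not tested.

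**Figure D1:**
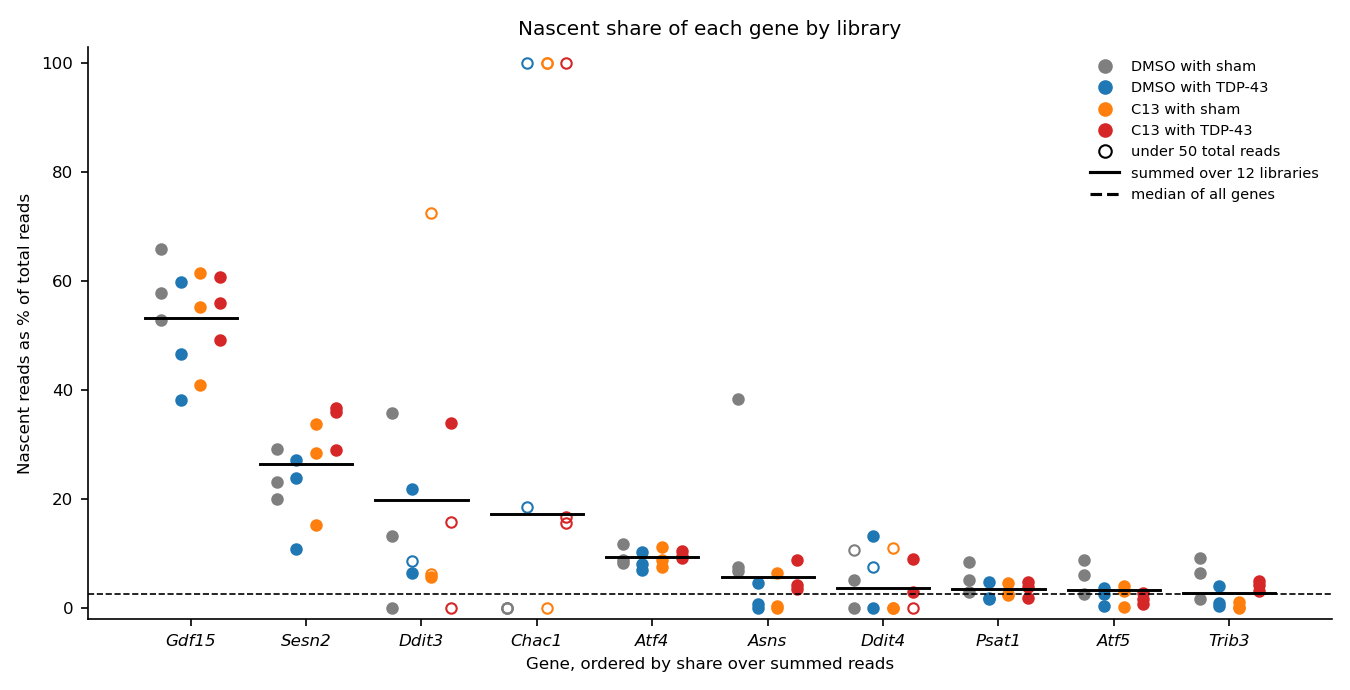
Nascent reads as a percent of total reads (y axis, linear) for each of the 10 genes (x axis), with 1 point per library coloured by group, open where the gene had under 50 total reads there. Solid lines are shares over summed reads and the dashed line is the median of all ranked genes. Gdf15 lies between 38.2% and 65.9% in all 12 libraries, against a median gene at 2.63%.

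Gdf15 (chromosome 8, 70629393 to 70632456, minus strand, GRCm38) had its lowest total level in the DMSO cultures that got the sham preparation, and the means of the other 3 groups lay between 82.1 and 89.2 CPM. In TMM-scaled CPM it was 43.7, 69.1 and 61.8 in DMSO/sham (58.2 ± 13.1, SD, n = 3). It was 71.0, 95.2 and 96.7 in DMSO/TDP-43 (87.6 ± 14.4, SD, n = 3). It was 65.5, 102 and 100.4 in C13/sham (89.2 ± 20.5, SD, n = 3), and 78.7, 109 and 59.1 in C13/TDP-43 (82.1 ± 24.9, SD, n = 3). All 3 libraries of DMSO/TDP-43 lay above all 3 of DMSO/sham, which held for 5.49% of genes tested in that direction. The C13/sham libraries overlapped those of DMSO/sham, since 65.5 is below 69.1. The log2 difference was 0.59 (SE 0.27) for TDP-43 against sham with DMSO (edgeR adjusted p = 0.999) and 0.62 (SE 0.27) for C13 against DMSO with sham (edgeR adjusted p = 0.803). Where the other agent was given as well, the differences were near zero: -0.09 (SE 0.27) for C13 with TDP-43 aggregates and -0.12 (SE 0.27) for TDP-43 with C13. The interaction, which asks whether the 2 agents' differences departed from a sum, was -0.71 (SE 0.38, edgeR adjusted p = 0.684). Comparisons that share a control group are not independent of each other.

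Nascent Gdf15 had the same order of groups but a wider spread. Nascent CPM was 602, 499.8 and 1449 in DMSO/sham (850.4 ± 521, SD, n = 3), and 1087, 1586 and 2224 in DMSO/TDP-43 (1632 ± 569.7, SD, n = 3). It was 1180, 1975 and 3547 in C13/sham (2234 ± 1205, SD, n = 3), and 1178, 1912 and 1379.9 in C13/TDP-43 (1490.0 ± 380, SD, n = 3). The groups overlapped in each of the 4 pairwise comparisons. The log2 difference for C13 against DMSO with sham was 1.39 (SE 0.50, edgeR adjusted p = 0.672) and fell to 0.82 without the 2 libraries that stand apart. For TDP-43 against sham with DMSO it was 0.94 (SE 0.50), with 0.64 without them and 1.54 without DMSO/sham replicate 3 alone. With the other agent given as well, it was -0.13 (SE 0.50) for C13 and -0.58 (SE 0.50) for TDP-43. The interaction was -1.53 (SE 0.70, edgeR adjusted p = 0.646) and moved to -0.65 without the 2 libraries that stand apart. C13/sham replicate 3 alone brought the C13 difference with sham to 0.79 when left out, and the interaction to -0.88. These nascent values also rest on scaling within the nascent table. With the library sizes of the total table they were 0.41 for C13 with sham, 0.29 for TDP-43 with DMSO and -0.29 for the interaction.

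Of the genes at a mean of 10 CPM or more, those whose total level followed Gdf15 most closely were not members. Trib3, Ddit3, Ddit4, Sesn2 and Chac1 were under that floor and were not compared. Among 7285 genes with a mean of at least 10 CPM, Pearson's r of log2 CPM over the 12 libraries was 0.935 for Gm26205, 0.865 for Nsmce1, a subunit of the SMC5/6 complex, 0.855 for the mitochondrial ribosomal RNA mt-Rnr1, 0.823 for the small noncoding RNA Bc1 and 0.810 for Aldh9a1, an aldehyde dehydrogenase. These points share library and depth, and the values are a description. Of the members at that level, Atf4 had 0.248, Asns 0.194, Psat1 0.183 and Atf5 -0.298. The mean share of total reads from mitochondrial ribosomal RNA, like mean Gdf15, was higher in DMSO/TDP-43 and C13/sham than in DMSO/sham. Unlike mean Gdf15, it lay near the DMSO/sham value in C13/TDP-43. It was 1.17%, 1.49% and 1.31% in DMSO/sham, 1.71%, 2.52% and 2.47% in DMSO/TDP-43, 1.80%, 2.37% and 3.70% in C13/sham, and 1.51%, 1.54% and 1.29% in C13/TDP-43. Its part in the Gdf15 levels was not tested.

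**Figure D2:**
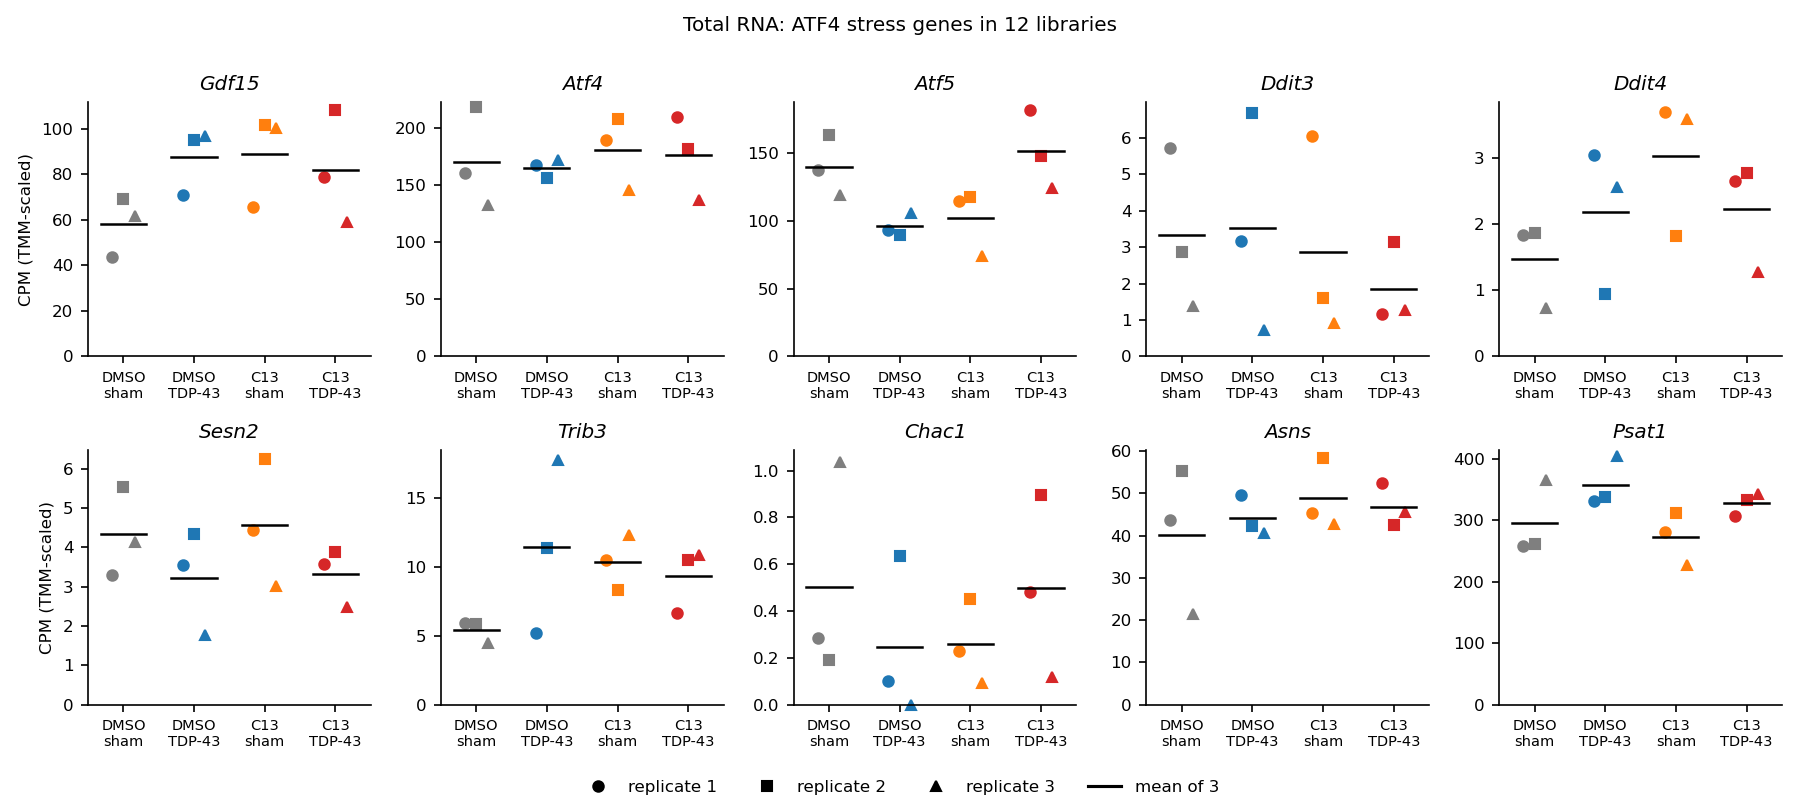
Total RNA level in TMM-scaled CPM (y axis, its own linear scale from 0 in each panel) for each of the 10 genes in the 4 groups (x axis), with 1 point per library shaped by replicate number and a line at the mean of 3. Gdf15 is lowest in DMSO/sham (mean 58.2 CPM), and Atf5 is higher in DMSO/sham and C13/TDP-43 (means 140.1 and 152 CPM) than in the other groups.

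The Atf4 message (chromosome 15, 80255184 to 80257541, plus strand) had group means in total RNA within a narrow range. They were 171 ± 43.6, 166 ± 8.29, 181 ± 32.3 and 176 ± 36.5 CPM (SD, n = 3 each) in DMSO/sham, DMSO/TDP-43, C13/sham and C13/TDP-43. The averaged log2 difference was 0.09 (SE 0.16) for C13 and -0.04 (SE 0.16) for TDP-43. In nascent RNA the libraries were 368, 322 and 396 CPM in DMSO/sham, 452, 445 and 728 in DMSO/TDP-43, 622, 646 and 960.2 in C13/sham, and 672, 504 and 530.5 in C13/TDP-43. With this scaling within the nascent table, all 3 DMSO/sham libraries were thus below all libraries of the other groups. The nascent shares of Atf4 overlapped, for example at 8.37% to 11.8% in DMSO/sham and 7.01% to 10.2% in DMSO/TDP-43. Among nascent genes tested, 5.13% were higher without overlap in C13 against DMSO with sham, where Atf4 and Sesn2 were, and 3.74% in TDP-43 against sham with DMSO, where Atf4 was. No member was lower without overlap in either, against 9.14% and 6.56% of genes. In C13 against DMSO with TDP-43 aggregates, 0 of 8 members were higher and 0 lower without overlap, against 6.02% and 4.34% of genes. The log2 difference for C13 against DMSO with sham was 1.04 (SE 0.44, edgeR adjusted p = 0.687). That value rests on scaling within the nascent table. With the library sizes of the total table it was -0.0077, and the median of all genes moved from -0.04 to -1.02. With TDP-43 aggregates present, the C13 difference was 0.07 (SE 0.44).

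Atf5 was the only member whose libraries did not overlap in total RNA in all 4 of the pairwise comparisons. The share of all genes with this joint pattern was not computed. The comparisons share groups, so the separate shares given below cannot be multiplied. It was 138, 163 and 119 CPM in DMSO/sham (140.1 ± 22.0, SD, n = 3) and 93.2, 89.6 and 106 in DMSO/TDP-43 (96.3 ± 8.69, SD, n = 3). It was 115, 117 and 73.9 in C13/sham (102 ± 24.4, SD, n = 3) and 182, 148 and 124 in C13/TDP-43 (152 ± 29.1, SD, n = 3). Each agent given alone went with a lower mean than in DMSO/sham, and both together with the highest mean. The margin was narrow for C13/sham, whose highest library, at 117 CPM, lay just under 119. Without overlap, it was lower in C13 against DMSO with sham, as for 5.72% of all genes, and in TDP-43 against sham with DMSO, as for 6.41%. It was higher in C13 against DMSO with TDP-43 aggregates, as for 6.97%, and in TDP-43 against sham with C13, as for 6.69%. In those last comparisons 0 members were lower without overlap, against 6.48% and 6.07% of all genes. The log2 differences in that order were -0.46, -0.54, 0.66 and 0.57, each with an SE of 0.23. The interaction was 1.11 (SE 0.32, edgeR adjusted p = 0.378), and leaving out each library in turn gave 0.93 to 1.25. C13/sham replicate 3 alone brought the C13 difference with sham to -0.26 when left out.

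Nascent Atf5 was less precise. It ran from 7.08 to 374 CPM over the libraries, and its interaction was 0.91 (SE 1.38). The Atf5 gene (chromosome 7, 44812256 to 44816658, minus strand, GRCm38) overlaps Nup62 and Il4i1 on the other strand, with 70239 and 398 total reads summed over the libraries. Whether counting used strand is not given in the sources used here, so reads of Atf5 and Nup62 may not be fully separated.

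Ddit3 (chromosome 10, 127290774 to 127296288, plus strand) was low in every group. Its total level was 5.73, 2.87 and 1.37 CPM in DMSO/sham, 3.15, 6.68 and 0.736 in DMSO/TDP-43, 6.06, 1.61 and 0.919 in C13/sham, and 1.17, 3.13 and 1.28 in C13/TDP-43. Libraries of 1 group differed more than group means did, which ran from 1.86 to 3.52 CPM. The averaged log2 difference was -0.57 (SE 0.69) for C13 and -0.27 (SE 0.69) for TDP-43. A second Ensembl gene of the same symbol overlaps it on the same strand and has no row among the genes counted. Ddit3 also overlaps Mars on the other strand, with 27058 total reads summed over the libraries against 1071 for Ddit3. Since the strand setting is unknown, reads of Ddit3 and Mars may not be fully separated, in its levels or in its nascent share.

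The mTORC1 inhibitors were low too. Total Ddit4 was 1.84, 1.87 and 0.725 CPM in DMSO/sham, 3.05, 0.941 and 2.56 in DMSO/TDP-43, 3.70, 1.81 and 3.59 in C13/sham, and 2.65, 2.77 and 1.28 in C13/TDP-43. Its log2 difference was 1.04 (SE 0.88) for C13 against DMSO with sham. Its nascent reads, 30 in all, were under the filter on low counts. An exact permutation test within the other agent's arms, two-sided over 400 arrangements, gave p = 0.81 for C13 and p = 0.58 for TDP-43 on log2(CPM + 0.5). Total Sesn2 ran from 1.76 to 6.25 CPM, with an averaged difference of 0.06 (SE 0.44) for C13. In nascent RNA Sesn2 was 19.8, 20.3 and 29.5 CPM in DMSO/sham, 31.8, 28.8 and 11.6 in DMSO/TDP-43, 37.2, 74.3 and 39.7 in C13/sham, and 39.1, 41.3 and 30.2 in C13/TDP-43. All 3 C13/sham libraries were above those of DMSO/sham. The averaged log2 difference for C13 was 0.86 (SE 0.72, edgeR adjusted p = 0.931).

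Trib3, an ATF4 target that binds ATF4 and damps it, had its lowest total level in DMSO/sham. It was 5.96, 5.87 and 4.48 CPM there, 5.19, 11.4 and 17.8 in DMSO/TDP-43, 10.5, 8.31 and 12.3 in C13/sham, and 6.63, 10.5 and 10.8 in C13/TDP-43. All C13/sham libraries exceeded all DMSO/sham libraries, as for 4.41% of genes, while DMSO/TDP-43 overlapped through replicate 1. The log2 difference was 0.93 (SE 0.46, edgeR adjusted p = 0.826) for C13 against DMSO with sham and 1.08 (SE 0.46, edgeR adjusted p = 0.999) for TDP-43 against sham with DMSO. The second fell to 0.61 without DMSO/TDP-43 replicate 3. The interaction was -1.23 (SE 0.65), and -0.76 without that library.

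Nascent Trib3 rested on 97 reads. It was 3.38, 0 and 1.98 CPM in C13/sham and 8.55, 15.4 and 14.5 in C13/TDP-43, which did not overlap, as for 7.87% of genes higher in TDP-43 against sham with C13. No member was lower without overlap there, against 5.23% of genes. The log2 difference was 2.76 (SE 1.65, edgeR adjusted p = 0.699). Set against its other reads in a joint fit that had a term for each library, the interaction was 4.40 (SE 2.25, edgeR adjusted p = 0.937), where the median of all genes was 0.35.

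Chac1, a strong ATF4 target in many cells, was barely detected: 0 to 1.03 CPM in total RNA. Its nascent reads were absent from the 3 DMSO/sham libraries, which held 9, 7 and 40 total reads of it. In the other groups the nascent level was 3.35, 3.27 and 0 CPM in DMSO/TDP-43, 6.76, 0 and 7.94 in C13/sham, and 2.44, 4.05 and 4.83 in C13/TDP-43. In 4 of the libraries every Chac1 read was nascent, but these held 2 or 4 reads each. On log2(CPM + 0.5) the averaged difference was 1.87 for C13 (two-sided exact permutation p = 0.08, 400 arrangements) and 1.18 for TDP-43 (p = 0.2). The exact permutation p for C13 was 0.04 without DMSO/TDP-43 replicate 1 or 2, and 0.02 without C13/sham replicate 2, and it lay between 0.08 and 0.16 without each of the other libraries. These settings were chosen after seeing the data.

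**Figure D3:**
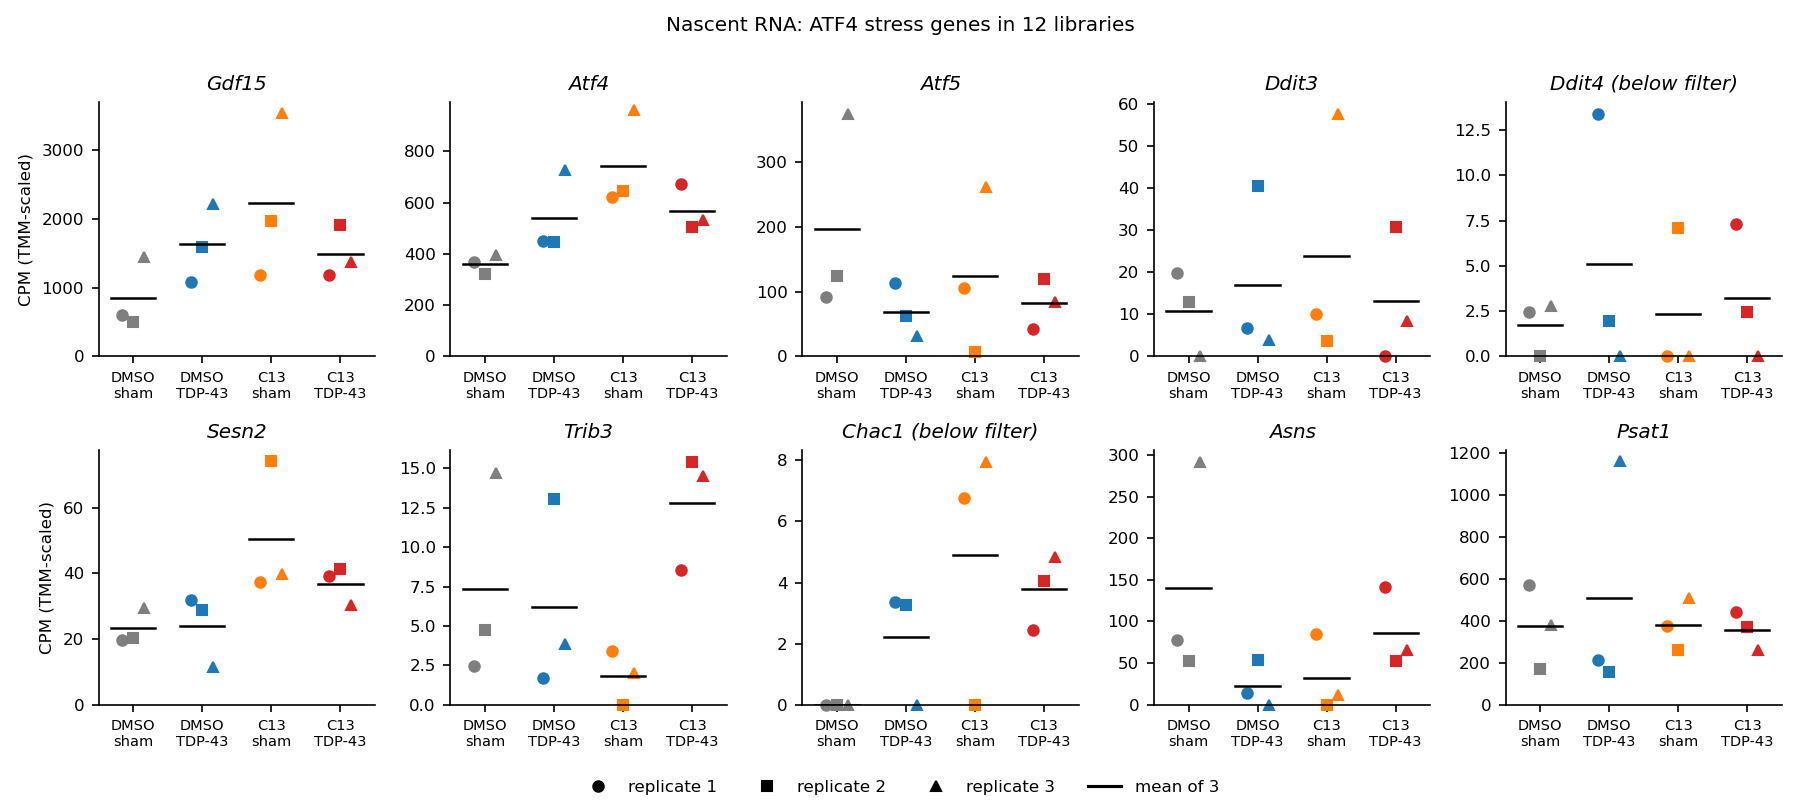
Nascent RNA level in TMM-scaled CPM (y axis, its own linear scale from 0 in each panel) for each of the 10 genes in the 4 groups (x axis), with 1 point per library shaped by replicate number and a line at the mean of 3. Gdf15 reaches 3547 CPM in C13/sham replicate 3, Asns reaches 291 CPM in DMSO/sham replicate 3, and Chac1 is at 0 in all DMSO/sham libraries.

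The amino acid enzymes were well expressed in total RNA in every group. Asns (chromosome 6, 7675169 to 7693254, minus strand) was 43.6, 55.2 and 21.3 CPM in DMSO/sham, 49.6, 42.3 and 40.6 in DMSO/TDP-43, 45.3, 58.3 and 42.7 in C13/sham, and 52.6, 42.4 and 45.6 in C13/TDP-43. The low value belonged to DMSO/sham replicate 3, and the other libraries lay between 40.6 and 58.3 CPM. The averaged difference was 0.19 (SE 0.21) for C13 and 0.04 (SE 0.21) for TDP-43. Psat1 was 259, 261 and 365 CPM in DMSO/sham, 332, 337 and 405 in DMSO/TDP-43, 280.2, 312 and 227 in C13/sham, and 307, 333 and 343 in C13/TDP-43. Its averaged difference was 0.27 (SE 0.14, edgeR adjusted p = 0.948) for TDP-43 and -0.12 (SE 0.14) for C13.

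Nascent Asns, unlike its total level, differed widely between libraries. It was 77.5, 52.7 and 291 CPM in DMSO/sham, 13.4, 53.6 and 0 in DMSO/TDP-43, 84.5, 0 and 11.9 in C13/sham, and 142, 51.8 and 65.2 in C13/TDP-43. DMSO/sham replicate 3, the library with the lowest total Asns, had 316 nascent of 824 reads, a share of 38.3% (95% Clopper-Pearson interval 33.6% to 43.2%). The 2 libraries at 0 had 1270 and 1158 total Asns reads, which puts the share under 0.579% and 0.635% by the same interval. These intervals do not overlap that of replicate 3 of DMSO/sham, and the source of the gap was not tested. The interaction in nascent RNA was 4.02 (SE 1.99, edgeR adjusted p = 0.667), and against the other reads 6.04 (SE 2.64, edgeR adjusted p = 0.913). Leaving out each library in turn moved the nascent interaction from 2.94, without DMSO/sham replicate 3, to 6.45, without C13/sham replicate 1. Nascent Psat1 ran from 154 to 1164 CPM, with averaged differences of -0.24 (SE 0.48) for C13 and 0.17 (SE 0.48) for TDP-43.

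**Figure D4:**
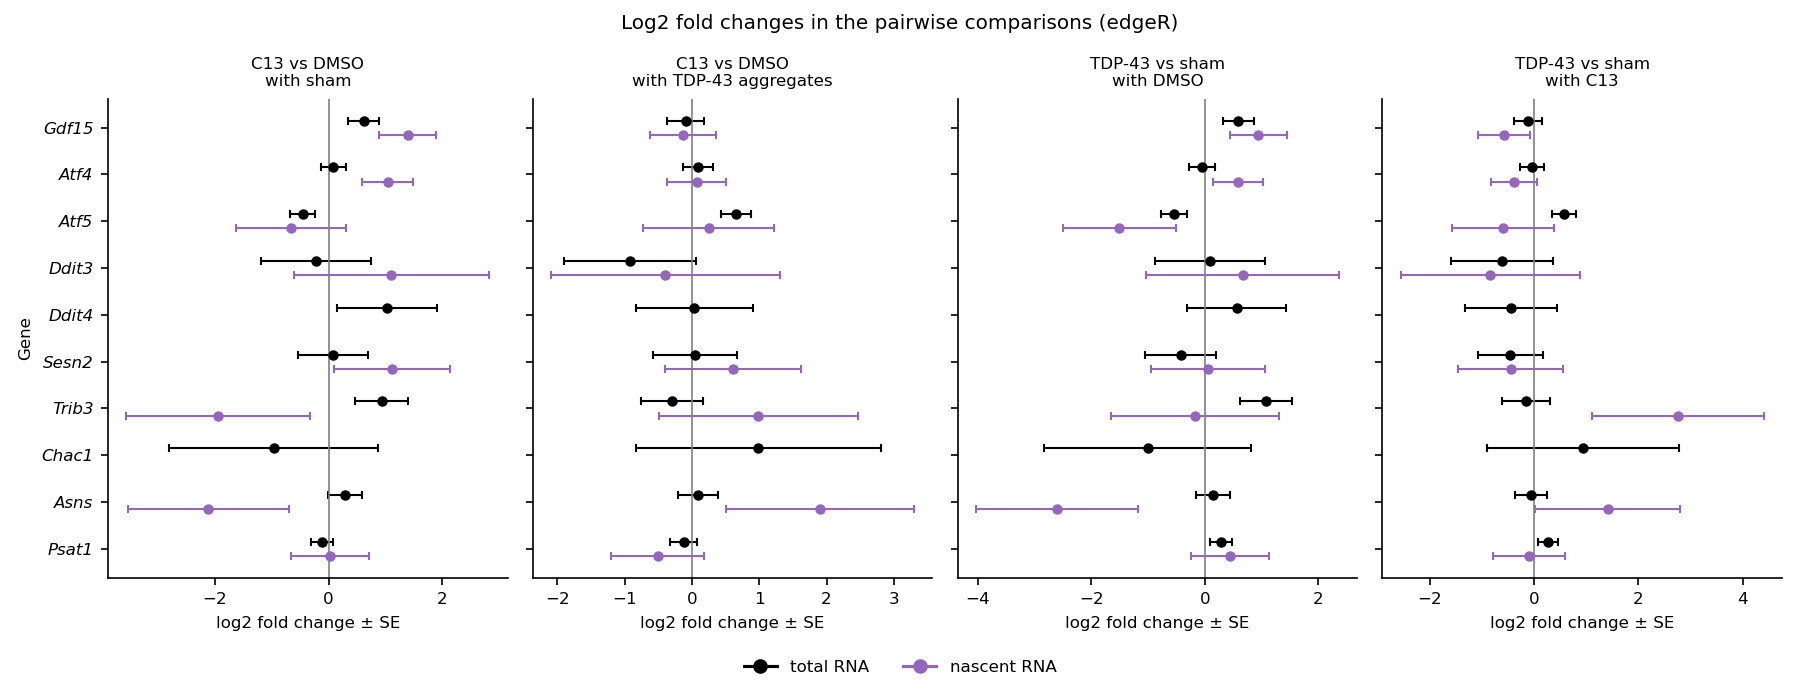
Log2 differences (x axis) with their standard errors as bars for each gene (y axis), 10 in total RNA and 8 in nascent RNA, where Ddit4 and Chac1 were under the filter, from edgeR fits over all genes. Atf5 changes sign between the arms in total RNA (-0.46 and 0.66 for C13), and the bars of Ddit3, Trib3 and Asns in nascent RNA are wide.

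Over the members as a list, the median log2 difference in total RNA was 0.08 for C13 against DMSO with sham and 0.11 for TDP-43 against sham with DMSO, against -0.01 and -0.02 over all genes. With the other agent present it was 0.04 for C13 and -0.09 for TDP-43, against -0.0045 and -0.01 over all genes. In nascent RNA, over the 8 members that passed the filter, it was 0.53 for C13 against DMSO with sham and 0.25 for TDP-43 with DMSO, against -0.04 and -0.04 over all genes. With the other agent present it was 0.16 for C13 and -0.42 for TDP-43, with 6 of 8 members lower in the latter, against 0.02 and 0.04 over all genes. The median interaction was -0.53 in nascent RNA, against 0.09 over all genes. For nascent against other reads, edgeR called 0 of 8 members in each of 3 comparisons. Over all genes it called 0% for C13 averaged, 0.0141% for TDP-43 averaged (Mff again) and 0% for the interaction. At an unadjusted p under 0.05 there was 1 member, Asns in the interaction, against 5.27% of all genes there. Gdf15 had 0.43 (SE 0.35) and Atf4 0.49 (SE 0.35) for C13 averaged over aggregate arms.

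Other genes of the pathway, from lists by role, had no calls in total RNA either. For C13 averaged over aggregate arms, edgeR called 0 of 8 genes for eIF2 kinases and phosphatase subunits, 0 of 6 partner transcription factors, 0 of 8 amino acid transporters, 0 of 12 aminoacyl-tRNA synthetases, 0 of 7 serine, one-carbon and amino acid enzymes and 0 of 9 other ATF4 targets, against 0% of all genes. The counts were the same for TDP-43 averaged over drug arms, where 1 gene, Bbc3, which encodes the p53 and CHOP target PUMA, had an unadjusted p under 0.05 at -0.88 (SE 0.34, edgeR adjusted p = 0.948). That is 1 of 50 list genes, against 4.73% of all genes. At an unadjusted p under 0.05, C13 had 1 gene among the serine, one-carbon and amino acid enzymes and 1 among the other targets, or 4% of the 50 list genes against 4.08% of all genes. The first was Gpt2, which transfers amino groups between alanine and glutamate, at -0.62 (SE 0.22, edgeR adjusted p = 0.999). It stood at 37.2 ± 10.0 CPM in DMSO/sham and 19.7 ± 6.46 in C13/sham (SD, n = 3 each), a difference of -0.92 (SE 0.32, edgeR adjusted p = 0.801). With TDP-43 aggregates it was 34.5 ± 1.06 CPM in DMSO and 27.6 ± 7.83 in C13, a difference of -0.32 (SE 0.32, edgeR adjusted p = 0.965). The second was Stc2, which was at 1.14 CPM or less in the mean of every group and at 0 in DMSO/TDP-43, so no fold is given.

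Among the synthetases, 8 of 12 were lower with C13 and 8 of 12 higher with TDP-43 in these averages, with list medians of -0.09 and 0.11 against -0.01 and -0.01 over all genes. The count for C13 was not the same in both arms or tables. With sham 9 of 12 were lower and with TDP-43 aggregates 6 of 12. In nascent RNA 9 of 12 were higher with C13 in the average (median 0.16, against -0.02 over all genes). The count for TDP-43 differed between arms too. With DMSO 5 of 12 were higher (median -0.05) and with C13 9 of 12 (median 0.28), against -0.02 and -0.01 over all genes. In nascent RNA 7 of 12 were higher with TDP-43 in the average (median 0.13, against -0.02 over all genes). Aars, the alanine enzyme, had 0.29 (SE 0.14, edgeR adjusted p = 0.999) for C13, and Eprs, the glutamate and proline enzyme, 0.43 (SE 0.20, edgeR adjusted p = 0.948) for TDP-43. Eif2ak2, the RNA-sensing eIF2 kinase PKR, had a log2 difference of -0.72 (SE 0.31) for TDP-43 with DMSO and 0.80 (SE 0.31) for C13 with TDP-43 aggregates, with edgeR adjusted p of 0.999 and 0.833. Mean Eif2ak2 levels were 41.5, 25.3, 31.2 and 44.0 CPM in DMSO/sham, DMSO/TDP-43, C13/sham and C13/TDP-43, an order of groups like that of Atf5. The transporter subunit Slc7a11, which brings in cystine, had 0.14 (SE 0.14) for C13 and 0.11 (SE 0.14) for TDP-43.

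In the interaction, edgeR called 0 genes of these lists in total RNA, against 0% of all genes, and 4 of 50 (8%) had an unadjusted p under 0.05, against 7.96% of all genes, so their number is that of the background. All 4 are described for this comparison because of their values. Slc38a2, a glutamine and alanine transporter, had -1.15 (SE 0.36, edgeR adjusted p = 0.417). Mars, the methionine enzyme, had 1.42 (SE 0.51, edgeR adjusted p = 0.478), Eif2ak2 1.22 (SE 0.44, edgeR adjusted p = 0.480) and Map1lc3b, a protein of autophagosome membranes, 0.76 (SE 0.30, edgeR adjusted p = 0.518). Mars overlaps Ddit3 on the other strand.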

How the data were processed

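RNA made during a 4-thiouridine pulse and total RNA were counted from 3′ mRNA libraries after iodoacetamide treatment, per the labels' protocols. Raw counts of each Ensembl gene, deposited by the authors as a nascent and a total table of 12 libraries, were used. Reads were placed on GRCm38, per the submitters' processing notes. The sources used here give no aligner, counter, annotation, strand setting or rule for a nascent read. Libraries of 3′ ends need no length correction. Symbols matched 30922 of 30994 identifiers. Replicates of a group differed beyond sampling noise (chi-square per degree of freedom 70.5 or more).

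Counts were filtered with filterByExpr, scaled by TMM within each table and fitted with edgeR 4.0.16 in R 4.3.3 (quasi-likelihood, 12 libraries, 4 group means). Adjustment was by Benjamini-Hochberg over all genes, at 0.05. A global change in labelled RNA is not visible after scaling inside the nascent table. Ddit4 and Chac1, under the nascent filter, were tested by exact permutation. Shares have Clopper-Pearson 95% intervals, which cover counting error only. In 1917 of 9932 genes, with 4 members among them (Gdf15, Atf5, Asns, Psat1), every count was divisible by a common factor of at least 2. No source explains it. It may affect how those 4 members' levels compare with the other 6, which was not tested. The members, the lists and the rule for named genes (the members, up to 3 genes per pathway list by smallest p for C13 averaged, and the 5 genes most like Gdf15) were chosen with earlier results of these data known; Bbc3, Mff, Slc38a2 and Mars were named, and Eif2ak2 and Map1lc3b described in further comparisons, after their values were seen. The edgeR tests were run on simulated counts only for C13 averaged over aggregate arms, and the outcome is not given here. For nascent against other reads, real total reads stood in for the other reads in that run. The other comparisons and the permutation tests were not run on simulated counts. Alternatives were DESeq2 1.42.0, its size factors, no filter, a replicate block, only the groups compared, each library left out, 2 libraries left out, total-table library sizes, other pseudocounts and a minimum of 20 nascent reads. Division by the shared factor, and the permutation tests without each library, were added after seeing the data.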

Additional observations from a re-analysis of the deposited data

Results flagged for a closer look

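Total Atf5 was picked out because its libraries did not overlap between the groups compared, and the direction of the difference reversed with the condition of the other agent. Against DMSO, C13 gave a log2 difference of -0.46 with sham and 0.66 with TDP-43 aggregates. Against sham, TDP-43 gave -0.54 with DMSO and 0.57 with C13. These 4 values come from the same 12 libraries and share groups, so they are 1 pattern and not 4. How common that pattern was over all genes was not computed. The difference itself was tested as the interaction, 1.11 (SE 0.32), and did not pass after adjustment (edgeR adjusted p = 0.378).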

How the results depend on the processing

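No member passed the threshold under any setting of the fits across genes, but counts over all genes depended on the tool. For C13 with TDP-43 aggregates, C13 with sham, TDP-43 with DMSO, TDP-43 with C13, C13 averaged, TDP-43 averaged and the interaction, in that order, DESeq2 called 30, 41, 8, 98, 16, 33 and 108 genes in total RNA and 11, 29, 7, 72, 10, 9 and 48 in nascent RNA. edgeR without the filter called 33, 59, 10, 124, 18, 33 and 124 in total RNA and 10, 29, 6, 30, 11, 18 and 38 in nascent RNA. The cause was not tested. In total RNA, TDP-43 with C13 had 1 call with only the groups compared and 1 without the 2 libraries that stand apart, as had TDP-43 averaged without those libraries, and the interaction had 2 calls with the shared factor divided out.

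Leaving out each library gave 0 to 2 calls for C13 with sham, 0 to 4 for TDP-43 with C13, 0 to 2 for C13 averaged, 0 to 1 for TDP-43 averaged and 0 to 3 for the interaction in total RNA. It gave 0 to 1 for TDP-43 with C13, TDP-43 averaged and the interaction in nascent RNA, and 0 to 1 for C13 averaged and TDP-43 averaged in nascent against other reads. C13 with sham replicate 1 gave the 4 calls and DMSO with sham replicate 2 the 3.

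Whether replicate numbers pair the libraries was not settled: the labels give no shared origin, same-numbered libraries correlated at -0.07 to 0.23 in total and -0.03 to 0.06 in nascent RNA, and 8 of 12 in total and 6 of 12 in nascent RNA lay closest to their own number, so not every library did. With the replicate block, the interaction had 2 calls in total RNA, TDP-43 averaged had 0 in nascent RNA, and the other 12 comparisons of total or nascent RNA had a count of 0 with and without it. The block was not run for nascent against other reads, which had a term for each library.

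Directions of Gdf15 in the presence of the other agent were not stable. Nascent C13 with TDP-43 was 0.16 without the 2 libraries that stand apart and 0.12 with total-table library sizes, which also moved TDP-43 with C13 to 0.0028 and nascent Atf4 for C13 with sham to -0.0077. Leaving out each library gave -0.36 to 0.16 for nascent Gdf15 for C13 with TDP-43, -0.35 to 0.10 for total Gdf15 there and -0.37 to 0.081 for TDP-43 with C13. It gave -0.066 to 0.34 for nascent Atf4 for C13 with TDP-43, and -0.976 to 0.285 for nascent Ddit4 for C13. With total-table sizes the median of all genes moved to -1.02 for C13 with sham, -0.84 for TDP-43 with DMSO and 1.19 for the interaction, so nascent differences are relative to it. Trib3 had no value under the minimum of 20 nascent reads. Low counts limited Chac1, Ddit4, Ddit3 and nascent Trib3.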
